A study of Sus scrofa with 11 samples.

Results

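Cytochrome P450 enzymes were followed in pig liver through every gene of the table whose symbol begins with CYP and a digit and that reached at least 1 FPKM in 2 or more libraries. All 17 such genes of the table met that minimum, out of 11644 genes that met it and 12505 listed. FPKM scales fragment counts by transcript length and by the mapped total of the library, so levels of different genes can be compared. The member nearest the minimum was CYP2S1, which reached 1 FPKM in 2 libraries, and no member of the table lay below it. No gene of the CYP3A, CYP2C, CYP2B, CYP4A or CYP8B subfamilies is among the 17, and these enzymes are not analysed here.

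The study irradiated the livers of pigs and sequenced total RNA from liver. The groups were 2 control libraries labelled day 0, and 3 libraries each at 20, 30 and 40 Gy labelled day 35, all of wild-type genotype. The labels give no age, breed or number of animals, nor do they say that libraries came from separate animals. Dose and elapsed time cannot be told apart against control, whereas the 3 doses share a day.

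Cytochromes P450 are haem enzymes that insert oxygen into their substrates, mostly in the endoplasmic reticulum, with electrons from the reductase POR. Families CYP1 to CYP3 clear drugs and toxins, many CYP4 enzymes oxidise fatty acids, CYP7, CYP27 and CYP39 enzymes turn cholesterol and oxysterols into bile acids, CYP26 enzymes destroy retinoic acid and CYP51 makes cholesterol. The liver holds more P450 activity than other organs, and several of its P450 genes are switched on by receptors that sense the enzymes' own substrates.

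Several libraries stood apart from their labels, and every result below rests on them. Over 6550 genes with a mean of at least 5 FPKM, the log2 ratio between 30Gy-1 and 30Gy-2 had an SD of 0.222, and that between 20Gy-3 and 30Gy-3, from different doses, an SD of 0.217. The other 53 pairs lay between 0.352 and 1.14. 30Gy-1 and 30Gy-2 were therefore counted as 1 sample in means and SDs, which leaves n = 2 in control, 3 at 20 Gy, 2 at 30 Gy and 3 at 40 Gy. Their separate values enter the fit, which counts them as 2 libraries. The reduced set below means the fit in which that pair is averaged and 20Gy-3 and 30Gy-3 are dropped, which leaves 1 library at 30 Gy. The labels call the tissue liver and the cell type hepatocyte. All 12 hepatocyte markers examined were above 0 in every library, and so were macrophage and endothelial markers, so the RNA is that of mixed tissue. In such tissue, fewer cells of a type and less RNA per cell cannot be told apart.

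The 17 genes together held between 0.35% and 0.695% of the summed FPKM of a library. Their sum was 4193 and 3563 FPKM in the control libraries, 3253, 4474 and 2873 at 20 Gy, 4033, 4000.4 and 2895 at 30 Gy, and 3621, 3593 and 3321 at 40 Gy. Thus the total differed by less than 2-fold between any libraries while its make-up did not stay the same. CYP2D6 (a gene named after the human drug-oxidising enzyme of that symbol), CYP2E1 and CYP27A1 made up 88.2% and 88.6% of the sum in the controls. They made up 75.5% and 73.6% in 40Gy-2 and 40Gy-3, where CYP1A2 took 18.6% and 19.6%. CYP2E1 alone supplied 1.92%, 2.10% and 2.19% of the sum in 20Gy-1, 20Gy-3 and 30Gy-3, against 25.2% to 52.1% in the other 8 libraries.

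**Figure D1:**
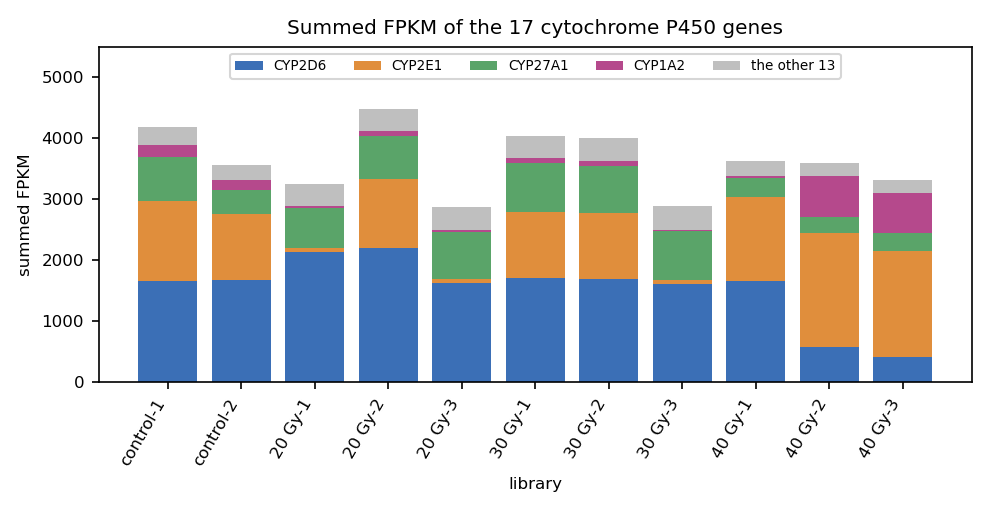
Summed FPKM of the 17 cytochrome P450 genes in each of the 11 libraries (y axis, FPKM; x axis, library), with the 4 named genes in colour and the other 13 in grey. CYP2E1 is nearly missing from 20Gy-1, 20Gy-3 and 30Gy-3, and CYP1A2 is largest in 40Gy-2 and 40Gy-3.

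At 40 Gy against the mean of 20 and 30 Gy, the comparison at a single day, 8 of the 17 genes changed. Among all genes tested 21.5% did, in limma with Benjamini-Hochberg adjustment over all 11644 genes and an adjusted p under 0.05. CYP26A1 rose, and CYP2D6, CYP2U1, CYP4F3, CYP7A1, CYP27A1, CYP39A1 and CYP51A1 fell. The 7 that fell are 7 of 17, where 9.71% of all genes fell, and the 1 that rose compares with 11.8% of all genes. The median log2 change of the 17 was -0.34, against 0.07 over all genes tested. Changes are on the scale of log2(FPKM + 1), which understates those of low genes. Against control, 3 of 17 changed at 40 Gy, where 7.39% of all genes did. CYP26A1 rose, beside 2.99% of all genes, and CYP2A19 and CYP2U1 fell, beside 4.41%. Over the mean of the 3 doses 1 of 17 changed, where 4.71% of all genes did (1.86% rose and 2.84% fell), and this was a rise of CYP26A1. At 20 Gy limma called 0 of 17, where it called 4.23% of all genes (2.03% higher and 2.2% lower). An unadjusted p under 0.05 was found for 5 of the 17, and for 2562 of all 11644 genes. At 30 Gy limma called 0 of 17, where it called 3.03% of all genes (1.32% higher and 1.71% lower). There 3 of the 17 had an unadjusted p under 0.05, as had 1921 of all 11644 genes.

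The count of 8 at 40 Gy against the lower doses was 3 without 40Gy-2 (372 higher and 474 lower among all genes). In the full fit 1377 of all genes were higher and 1131 lower. It was 4 without 40Gy-3 (594 higher and 593 lower among all genes). Averaging the 30 Gy pair left 6 (942 higher and 841 lower among all genes), without CYP2D6 and CYP7A1. With both 20Gy-3 and 30Gy-3 dropped it was 4 (544 higher and 633 lower among all genes). Those were CYP26A1, CYP27A1, CYP2U1 and CYP2A19, and CYP2A19 is not among the 8. The count was 5 with libraries rescaled to the same sum of FPKM (836 higher and 703 lower among all genes). In the reduced set it was 2, CYP26A1 and CYP2U1. Against control at 40 Gy the count of 3 became 9 without 40Gy-1, where CYP1A1 and CYP1B1 were also called up and CYP2D6, CYP27A1, CYP39A1 and CYP51A1 were also called down, and 1 in the reduced set. It became 2 with the pair averaged or the sums rescaled, and without each library other than 20Gy-2, 30Gy-3 and 40Gy-1. In these CYP26A1 and CYP2U1 were called, except without control-1 (CYP26A1 and CYP4F3) and without control-2 (CYP26A1 and CYP27A1). The log2 change of CYP4F3 at 40 Gy against control was -1.64 without control-1 (adjusted p = 0.0417) and 0.12 without control-2 (adjusted p = 0.886). The 0 at 20 Gy became 4 without 40Gy-1, 2 without 20Gy-2 and 2 with rescaled sums, and the 0 at 30 Gy became 3 without 40Gy-1 and 1 with rescaled sums. Leaving out 40Gy-1 raised the calls among all genes too, from 861 to 2655 at 40 Gy against control. They went from 492 to 1644 at 20 Gy and from 353 to 1110 at 30 Gy. Without 20Gy-2, 249 of all genes were higher and 257 lower at 20 Gy. With rescaled sums 149 were higher and 79 lower at 20 Gy, and 84 and 70 at 30 Gy. Here and below, leaving out 40Gy-1 does not alter log2 changes of the lower doses against control. It alters only the spread that all groups share. The SE of CYP7A1 at 20 Gy, for example, went from 1.34 to 0.684.

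Markers of hepatocytes moved with the 40 Gy group. Of 12 measured, 5 fell at 40 Gy against the lower doses and 3 against control, where 9.71% and 4.41% of all genes fell. These counts became 0 and 0 in the reduced set. Without any 1 irradiated library other than 30Gy-3 and 40Gy-1 the 5 became 3, and without either control the 3 became 1. Their summed level was 35570.0 to 38029 FPKM at 40 Gy, 53680.0 to 66634 at 20 Gy, 59689 to 72327 at 30 Gy and 51315 to 83657 in control. Of neutrophil markers 3 of 3 tested rose at 40 Gy against the lower doses, where 11.8% of all genes did. They summed to 7.71 to 17.9 FPKM at 40 Gy, 0.397 to 0.85 at 20 Gy, 0.341 to 1.01 at 30 Gy and 1.53 to 4.6 in control. S100A8 and S100A12 were each listed at 0 in some libraries of the lower doses and in no other. Among macrophage markers 2 of 9 rose at 40 Gy against the lower doses, where 11.8% of all genes did. The 2 became 0 without 40Gy-2 or 20Gy-1 and 1 without 40Gy-3 or 20Gy-3. The macrophage marker sum was 1213, 526 and 515 FPKM across the 40 Gy libraries in numbered order, against 350 to 750 at 20 Gy and 360 to 746 at 30 Gy. Of T and NK cell markers 3 of 6 fell at 40 Gy against the lower doses, beside 9.71% of all genes. Their sum was 35.6, 11.009 and 9.27 FPKM in the 40 Gy libraries in numbered order, so 40Gy-1 was the highest of all libraries. It was 20.8 to 22.7 at 20 Gy and 18.5 to 21.1 at 30 Gy. The 3 became 0 without 40Gy-2 and in the reduced set, 1 without 40Gy-3 or 20Gy-3 and 5 without 40Gy-1. Of 2 tested B and plasma cell markers JCHAIN rose (log2 2.56, SE 0.256, adjusted p = 0.00109) and CD79A fell (log2 -0.99, SE 0.195, adjusted p = 0.0159) at 40 Gy against control. Of all genes 2.99% rose and 4.41% fell in that comparison. CD79A was not called without 40Gy-2 or either control, nor in the reduced set. The part of these cell types in the P450 values was not tested.

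**Figure D2:**
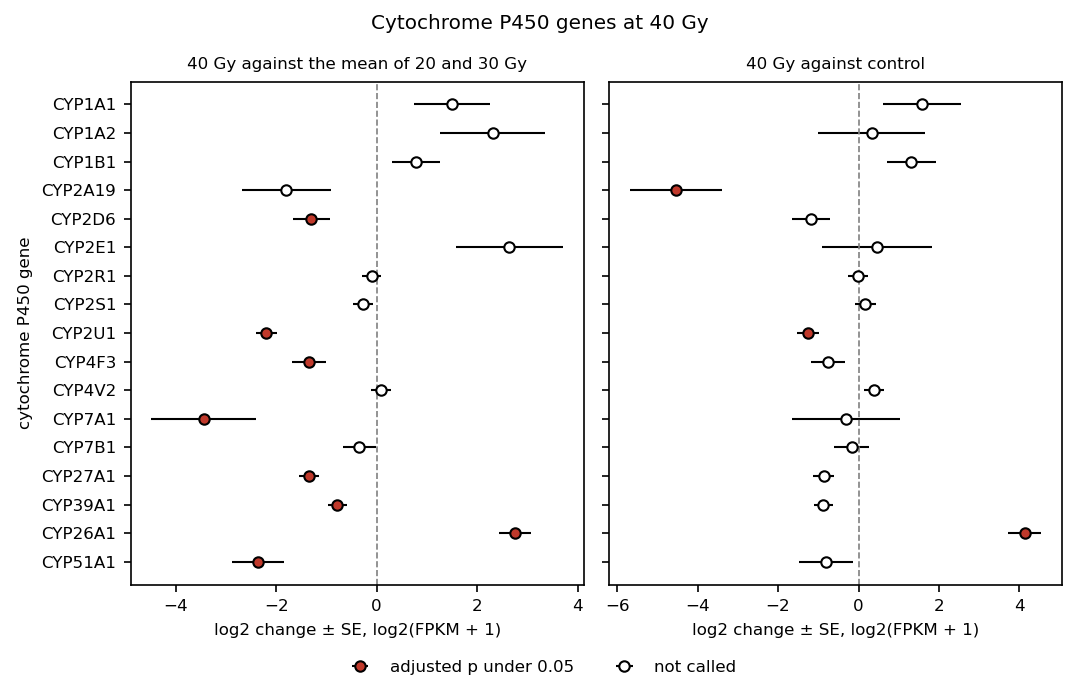
Log2 change of each cytochrome P450 gene (x axis, log2(FPKM + 1) scale, with the SE of the limma fit to 11 libraries as bars) at 40 Gy against the mean of 20 and 30 Gy (left) and against control (right). Red points passed an adjusted p under 0.05. They are 8 of 17 on the left and 3 of 17 on the right, and CYP26A1 is the red point above 0 in both.

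**Figure D3:**
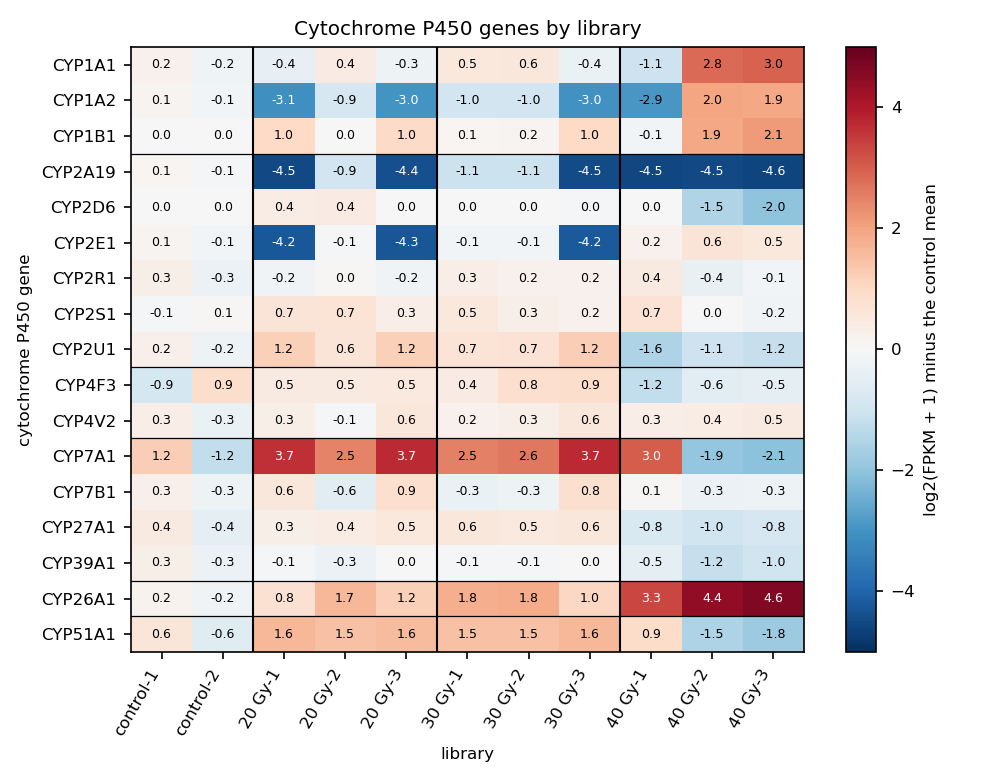
Log2(FPKM + 1) of the 17 genes (rows, ordered by family) in the 11 libraries (columns), minus the mean of the 2 control libraries; red is higher and blue lower than control. CYP2A19 and CYP2E1 are deep blue in 20Gy-1, 20Gy-3 and 30Gy-3, and CYP26A1 is red in all 9 irradiated libraries.

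CYP26A1, the enzyme that starts the breakdown of retinoic acid, was higher in every irradiated library than in either control. The gene (ENSSSCG00000010475, Sscrofa11.1 chromosome 14, 104561394 to 104567099) had 2.39 and 1.72 FPKM in the controls, 4.12, 8.69 and 5.99 at 20 Gy, 9.57, 9.85 and 5.22 at 30 Gy, and 29.7, 65.1 and 73.9 at 40 Gy. The 3 libraries of 40 Gy stood above all 6 of the lower doses, and 40Gy-1 was the lowest of them. Group means were 2.06 ± 0.478 in control, 6.26 ± 2.30 at 20 Gy, 7.46 ± 3.17 at 30 Gy and 56.2 ± 23.4 at 40 Gy (SD). The rise at 40 Gy was 17.6-fold against control on the FPKM + 1 scale (log2 4.14, SE 0.412, limma adjusted p = 0.00109, range over alternatives 5.54e-05 to 0.0166). Against the mean of 20 and 30 Gy it was 6.74-fold (log2 2.75, SE 0.319, adjusted p = 5.45e-04, range 6.23e-05 to 0.0291). Both of these calls held under every alternative tried. At 20 and 30 Gy the log2 changes against control were 1.21 (SE 0.412, adjusted p = 0.125) and 1.56 (SE 0.412, adjusted p = 0.0794), so neither passed. With rescaled sums both were called, with 0.048 and 0.0354, and likewise without 40Gy-1, with 0.0325 and 0.0151. Over the mean of the doses the rise was 2.30 (SE 0.352, adjusted p = 0.00594), lost without control-2 (0.0997) or control-1 (0.056) and in the reduced set (0.0717).

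Of 19 other measured genes that handle retinoids or respond to them, 0 rose and 6 fell at 40 Gy against the lower doses, where 11.8% and 9.71% of all genes did, with a median log2 change of -0.49 beside 0.07 for all genes. The 6 became 2 without 40Gy-2 or without 40Gy-3, 10 without 40Gy-1 and 1, DHRS4, in the reduced set. DHRS4, a retinal reductase, had 232, 112 and 112 FPKM at 40 Gy, against 545, 644 and 453 at 20 Gy and 611, 593 and 469.9 at 30 Gy (log2 -1.93, SE 0.254, adjusted p = 0.00101). Its libraries did not overlap between 40 Gy and the lower doses. DHRS3, which turns retinal back into retinol, had a log2 change of -0.85 (SE 0.169, adjusted p = 0.00765), and the chemerin gene RARRES2, named for its response to a retinoid, one of -0.84 (SE 0.208, adjusted p = 0.0192). DHRS3 rose at 20 Gy against control (log2 0.92, SE 0.218, adjusted p = 0.0427), a call lost without any 1 library other than 40Gy-1 and 40Gy-3 (0.0529 to 0.229). RDH11, a retinal reductase, fell at every dose against control, with log2 changes of -1.31 at 20 Gy (adjusted p = 0.0304), -1.24 at 30 Gy (adjusted p = 0.0467) and -1.73 at 40 Gy (adjusted p = 0.00719; SE 0.283 for each). Its call at 20 Gy was lost without control-2, any 20 Gy library, 30Gy-1 or 30Gy-2 (0.0577 to 0.163), and that at 30 Gy without any library other than control-1 and 40Gy-1 (0.0605 to 0.261). RARRES1 and RDH10 also fell against the lower doses, with 36.4 to 43.8 and 8.16 to 8.82 FPKM at 40 Gy. RARB, a retinoic acid receptor, had 3.02, 8.83 and 9.20 FPKM at 40 Gy and 2.79 to 4.76 at 20 and 30 Gy, and was not called. The falls of DHRS3 and RARRES2 against the lower doses and of RDH11 at 40 Gy against control were not called in the reduced set, with an adjusted p of 0.143, 0.22 and 0.0658. That of RARRES2 was lost also without 40Gy-2 (0.102) and 40Gy-3 (0.0728), and with rescaled sums RARRES2 had 0.0614 and RDH11 0.054.

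The CYP1 genes, which oxidise aromatic compounds and are induced through the aryl hydrocarbon receptor AHR, were split within the 40 Gy group. CYP1A2, a main P450 of hepatocytes (ENSSSCG00000001901, chromosome 7, 58779529 to 58786155), had 189 and 157 FPKM in the controls, 19.6, 94.8 and 20.6 at 20 Gy, 88.2, 87.5 and 20.1 at 30 Gy, and 22.3, 669 and 651 at 40 Gy. Thus 40Gy-2 and 40Gy-3 stood above all other libraries, and 40Gy-1 beside 20Gy-1, 20Gy-3 and 30Gy-3. CYP1A1, its neighbour (ENSSSCG00000001906, chromosome 7, 58802887 to 58809155), had 8.68 and 6.22 FPKM in the controls, 5.37, 10.3 and 5.92 at 20 Gy, 11.009, 11.3 and 5.55 at 30 Gy, and 3.03, 57.9 and 63.9 at 40 Gy. CYP1B1 had 0.322 and 0.305 in the controls, 1.61, 0.311 and 1.56 at 20 Gy, 0.402, 0.458 and 1.63 at 30 Gy, and 0.199, 4.04 and 4.80 at 40 Gy. All 3 genes were therefore at their highest in 40Gy-2 and 40Gy-3, and CYP1A1 and CYP1B1 at their lowest in 40Gy-1. Marker sums of 9 stellate cell and fibroblast genes were 368, 51.8 and 43.9 FPKM in the 40 Gy libraries in numbered order, and those of 6 T and NK cell genes 35.6, 11.009 and 9.27. Their part in the split was not tested.

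None of the 3 passed at 40 Gy against the lower doses, where CYP1A2 had a log2 difference of 2.31 (SE 1.04, adjusted p = 0.135), CYP1A1 of 1.49 (SE 0.753, adjusted p = 0.177) and CYP1B1 of 0.78 (SE 0.472, adjusted p = 0.25). Without 40Gy-1 all 3 were called, with 3.92 (SE 0.676, adjusted p = 0.00198), 2.81 (SE 0.292, adjusted p = 1.46e-04) and 1.51 (SE 0.309, adjusted p = 0.00465). The log2 difference from control at 40 Gy turned negative for CYP1A2 without 40Gy-2 (-0.49) and without 40Gy-3 (-0.47), where it was 0.32 with all libraries. At 20 and 30 Gy CYP1A2 was below both controls in every library, with 45.0 ± 43.1 and 54.0 ± 47.9 FPKM, against 173 ± 22.9 in control, and did not pass (log2 -2.31, SE 1.34, adjusted p = 0.337, and log2 -1.65, SE 1.34, adjusted p = 0.603). Reads of CYP1A1 and CYP1A2 may be shared between these similar genes.

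AHR itself was lower at 40 Gy than at the lower doses. It had 8.01, 5.49 and 6.75 FPKM at 40 Gy, against 21.4, 21.0 and 29.7 at 20 Gy and 28.6, 29.1 and 29.5 at 30 Gy, with no overlap (log2 -1.83, SE 0.242, adjusted p = 0.00108). Both lower doses were also above control, which had 12.3 and 4.82 FPKM (20 Gy log2 1.49, SE 0.313, adjusted p = 0.028; 30 Gy log2 1.78, SE 0.313, adjusted p = 0.015). In the reduced set the fall of AHR at 40 Gy had an adjusted p of 0.05004. Both calls against control were lost without control-2 (0.168 at 20 Gy and 0.102 at 30 Gy), 30Gy-2 (0.0526 and 0.0586) or 30Gy-1 (0.0529 and 0.0591), and that at 20 Gy also without 20Gy-3 (0.0861) or 20Gy-1 (0.0812).

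Of the CYP2 genes, CYP2A19 and CYP2E1 were low in the same 3 libraries of 20 and 30 Gy. CYP2A19, a pig enzyme that oxidises skatole and other small aromatic compounds (ENSSSCG00000002993, chromosome 6, 49056579 to 49064111), had 119.6 and 107 FPKM in the controls, 4.05, 58.4 and 4.49 at 20 Gy, 52.9, 53.1 and 4.11 at 30 Gy, and 3.93, 4.03 and 3.78 at 40 Gy. Every irradiated library was below both controls, and 6 of 9 lay between 3.78 and 4.49 FPKM. CYP2E1, which oxidises ethanol and other small molecules (ENSSSCG00000010780, chromosome 14, 141690737 to 141703078), had 1309.9 and 1092 FPKM in the controls, 62.3, 1126 and 60.4 at 20 Gy, 1090.5, 1091 and 63.5 at 30 Gy, and 1385, 1859 and 1729.7 at 40 Gy. Here 20Gy-1, 20Gy-3 and 30Gy-3 stood apart, and the other irradiated libraries were near or above the controls. Within a dose the highest library exceeded the lowest 18.6-fold at 20 Gy and 17.2-fold at 30 Gy for CYP2E1, and 14.4-fold and 12.9-fold for CYP2A19.

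CYP2A19 fell at 40 Gy to 3.91 ± 0.129 FPKM, against 113 ± 9.004 in control (log2 -4.54, SE 1.15, limma adjusted p = 0.0417, range 0.0166 to 0.196). Leaving out 40Gy-3 (0.0858) or 40Gy-2 (0.11) lost the call, as did 30Gy-2 (0.0552) or 30Gy-1 (0.0557), 20Gy-3 (0.0541) or 20Gy-1 (0.052), control-2 (0.162) or control-1 (0.196), and rescaled sums (0.0646). Averaging 30Gy-1 and 30Gy-2 lost that call as well. The log2 change of CYP2A19 was -3.27 at 20 Gy (SE 1.15, adjusted p = 0.134) and -2.21 at 30 Gy (SE 1.15, adjusted p = 0.382). At 40 Gy against the lower doses it was -1.79 (SE 0.89, adjusted p = 0.169). That fall was called without 30Gy-3 and with both 20Gy-3 and 30Gy-3 dropped. CYP2E1 did not pass in any comparison, and its log2 difference at 40 Gy against the lower doses was 2.64 (SE 1.07, adjusted p = 0.101), or 3.34 without 20Gy-2 (adjusted p = 0.0213). CYP2A19 overlaps the non-coding gene LOC110260991, so its reads may be mixed with those of a gene that is not a P450.

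CYP2D6, the most abundant of the 17 by its mean over libraries, had 1658 and 1669 FPKM in the controls, 2131, 2204 and 1630.5 at 20 Gy, 1708, 1685 and 1609 at 30 Gy, and 1654, 581 and 415 at 40 Gy. Low values were those of 40Gy-2 and 40Gy-3, while 40Gy-1 lay within the range of the lower doses. It fell at 40 Gy to 884 ± 673 FPKM, against 1989 ± 312 at 20 Gy and 1653 ± 62.0 at 30 Gy (log2 -1.30, SE 0.364, adjusted p = 0.0313, range 8.63e-05 to 0.209). Leaving out 40Gy-3 (0.131) or 40Gy-2 (0.139) lost the call, as did 30Gy-3 (0.0531), 30Gy-2 (0.0593) or 30Gy-1 (0.0596), 20Gy-1 (0.0654), and rescaled sums (0.095). Averaging 30Gy-1 and 30Gy-2, or dropping both 20Gy-3 and 30Gy-3, lost it as well.

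CYP2U1, a fatty acid hydroxylase (ENSSSCG00000009151), had 13.4 and 9.37 FPKM in the controls, 26.6, 17.9 and 26.9 at 20 Gy, 18.8, 19.3 and 27.3 at 30 Gy, and 3.15, 4.90 and 4.503 at 40 Gy. All 6 libraries of the lower doses were above both controls and all 3 of 40 Gy below them. The fall at 40 Gy against the lower doses, to 4.18 ± 0.921 FPKM against 23.8 ± 5.09 at 20 Gy and 23.2 ± 5.87 at 30 Gy, was called under every alternative (log2 -2.19, SE 0.205, adjusted p = 1.68e-04, range 1.55e-04 to 0.0176). Against control it was -1.25 (SE 0.265, adjusted p = 0.021), lost without control-1 (0.166) and control-2 (0.0537). At 20 and 30 Gy against control the log2 changes were 0.998 (SE 0.265, adjusted p = 0.0637) and 0.88 (SE 0.265, adjusted p = 0.121). Both other CYP2 genes were low throughout. CYP2R1, a vitamin D hydroxylase, ranged from 1.17 to 2.80 FPKM and CYP2S1 from 0.107 to 1.07, and neither passed in any comparison.

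**Figure D4:**
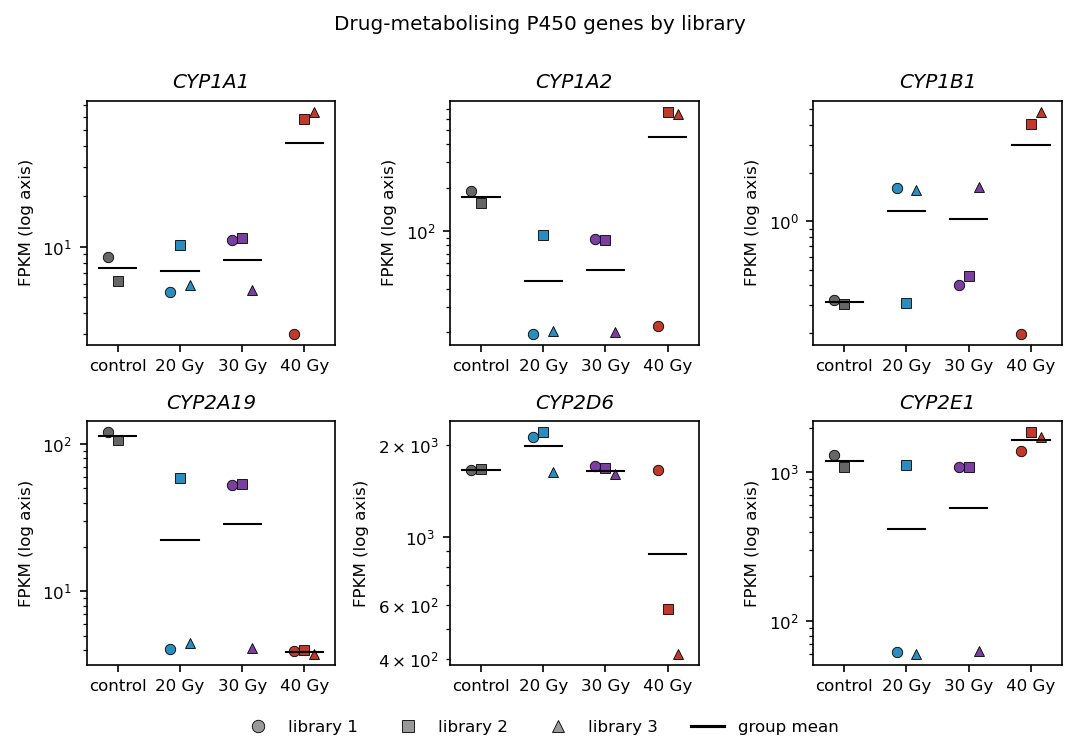
FPKM of 6 P450 genes of drug and toxin metabolism in each library (y axis, log scale; x axis, group), with the mean of each group as a line. Shapes give the library number. CYP2A19 and CYP2E1 split the 20 and 30 Gy groups into high and low libraries, and the 3 CYP1 genes split the 40 Gy group.

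The split of the 20 and 30 Gy libraries did not follow dose. Between 20Gy-1 and 20Gy-2, from a single dose, 5 of 17 genes differed by more than 1 on the log2(FPKM + 1) scale, where 6.42% of all genes did. These were CYP1A2, CYP2A19, CYP2E1, CYP7A1 and CYP7B1, and the same 5 differed between 30Gy-3 and 30Gy-1, where 6.04% of all genes did. Between 20Gy-1 and 30Gy-3, from different doses, 0 of 17 did, as between 20Gy-2 and 30Gy-1, where 1.13% and 1.47% of all genes did. No label or column name separates these libraries, and the source of the split was not tested. At 40 Gy 7 of 17 genes spanned more than 1 log2 unit between the highest and lowest library, beside 23.8% of all genes, and at 20 Gy 5 of 17 beside 10.4%.

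CYP4F3, named after the human enzyme that inactivates leukotrienes, had 15.2 and 53.9 FPKM in the controls, 39.9, 39.9 and 40.7 at 20 Gy, 38.7, 52.3 and 53.6 at 30 Gy, and 11.8, 19.1 and 20.1 at 40 Gy. All 3 libraries of 40 Gy were below all 6 of the lower doses, while the 2 controls differed 3.55-fold. It fell at 40 Gy against the lower doses (log2 -1.35, SE 0.333, adjusted p = 0.019, range 0.00283 to 0.185), and the call was lost without 40Gy-2 (0.0606). With both 20Gy-3 and 30Gy-3 dropped, CYP4F3 was not called either. CYP4V2, a fatty acid hydroxylase (chromosome 15, 47038078 to 47068315), was level, with 14.0 to 27.3 FPKM over the 11 libraries and a log2 difference of 0.08 at 40 Gy against the lower doses (SE 0.195, adjusted p = 0.784).

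Among the genes of bile acid synthesis, CYP7A1 was high at the lower doses. This rate-limiting enzyme of the classic pathway (ENSSSCG00000006238, chromosome 4, 74343101 to 74372628) had 14.97 and 1.86 FPKM in the controls, 84.1, 36.6 and 89.2 at 20 Gy, 37.9, 41.0 and 89.5 at 30 Gy, and 54.5, 0.778 and 0.631 at 40 Gy. All 6 libraries of the lower doses were above both controls, and 40Gy-1 stood with them while 40Gy-2 and 40Gy-3 were below every other library. It fell at 40 Gy to 18.6 ± 31.1 FPKM, against 70.0 ± 29.0 at 20 Gy and 64.5 ± 35.4 at 30 Gy (log2 -3.44, SE 1.04, adjusted p = 0.0405, range 2.94e-04 to 0.268). Leaving out 40Gy-3 (0.169) or 40Gy-2 (0.188) lost the call, as did 30Gy-3 (0.0752), 30Gy-2 (0.0635) or 30Gy-1 (0.0621), 20Gy-3 (0.0785) or 20Gy-1 (0.079), and rescaled sums (0.075). Averaging 30Gy-1 and 30Gy-2, or dropping both 20Gy-3 and 30Gy-3, lost it as well. Against control the log2 changes of 3.29 at 20 Gy (SE 1.34, adjusted p = 0.187) and 2.97 at 30 Gy (SE 1.34, adjusted p = 0.305) did not pass, though without 40Gy-1 both did. Its span overlaps SDCBP, which ranged from 28.1 to 67.1 FPKM over the libraries, a span of 2.39-fold.

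CYP27A1, the mitochondrial sterol hydroxylase that opens the acidic pathway (ENSSSCG00000016199, chromosome 15, 120809886 to 120852196), had 732 and 397 FPKM in the controls, 668, 702 and 778 at 20 Gy, 794, 765 and 802 at 30 Gy, and 315, 273 and 299 at 40 Gy. The 3 libraries of 40 Gy lay close together and were below all 8 others. The fall to 296 ± 20.9 FPKM at 40 Gy, against 716 ± 56.5 at 20 Gy and 791 ± 15.99 at 30 Gy, passed (log2 -1.34, SE 0.201, adjusted p = 0.00211, range 8.4e-04 to 0.0878) and held with any single library left out. Unlike that of CYP2U1, the call of CYP27A1 did not hold under every alternative, and the reduced set lost it. CYP39A1, which acts on oxysterols (chromosome 7, 41345011 to 41425854), had 13.6, 8.04 and 9.28 FPKM at 40 Gy, against 18.3, 15.7 and 19.5 at 20 Gy and 17.9, 18.0 and 19.2 at 30 Gy (log2 -0.78, SE 0.186, adjusted p = 0.0162). The controls had 23.7 and 15.8 FPKM, and the call was lost without 40Gy-2 (0.0913) and 40Gy-3 (0.0685) and with rescaled sums (0.0757). Dropping both 20Gy-3 and 30Gy-3 lost it too. CYP7B1, the oxysterol hydroxylase of the acidic pathway, ranged from 3.58 to 11.2 FPKM and did not pass. Its 3 highest values were in 20Gy-1, 20Gy-3 and 30Gy-3.

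Of 8 other genes of bile acid synthesis that were measured, 0 rose and 5 fell at 40 Gy against the lower doses, where 9.71% of all genes fell. KLB, the co-receptor through which the gut hormone FGF19 represses CYP7A1, had 2.22, 0.698 and 0.61 FPKM at 40 Gy, against 10.2, 6.98 and 11.3 at 20 Gy and 6.96, 7.40 and 11.02 at 30 Gy (log2 -2.25, SE 0.256, adjusted p = 5.20e-04). Like CYP7A1 it was above control (1.65 and 0.952 FPKM) in all 6 libraries of the lower doses, and it passed there (20 Gy log2 2.18, SE 0.331, adjusted p = 0.00543; 30 Gy log2 2.03, SE 0.331, adjusted p = 0.00973). Both of these calls were lost without control-2 (0.0718 and 0.119) and in the reduced set (0.0859 and 0.454). SLC27A5, which activates bile acids for conjugation, fell by 1.55 (SE 0.249, adjusted p = 0.00305), and the peroxisomal HSD17B4 by 0.99 (SE 0.184, adjusted p = 0.00569). The acyl-CoA synthetase SLC27A2 fell at every dose against control, with log2 changes of -1.15 at 20 Gy (adjusted p = 0.00816), -0.89 at 30 Gy (adjusted p = 0.0343) and -1.49 at 40 Gy (adjusted p = 0.0024; SE 0.186 for each). Its call at 20 Gy was lost without control-1 (0.067) and in the reduced set (0.114), and that at 30 Gy without any library other than 20Gy-2, 40Gy-1 and 40Gy-3 (0.0531 to 0.179). AKR1D1, which reduces the steroid ring, was called down at 40 Gy against the lower doses (log2 -0.88, SE 0.232, adjusted p = 0.0245), but not without 40Gy-3 (0.103), 40Gy-2 (0.122), 30Gy-2 (0.0526) or 30Gy-1 (0.0521). The count of 5 was 3 without any 1 of these 4 libraries and 1, KLB, in the reduced set. SLC27A5 and HSD17B4 lost their calls in the reduced set, with 0.0819 and 0.13.

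CYP51A1, which removes a methyl group from lanosterol on the way to cholesterol (ENSSSCG00000015311, CYP51 in RefSeq, chromosome 9, 72057506 to 72079587), had 73.5 and 31.9 FPKM in the controls, 154, 136 and 149 at 20 Gy, 135, 137 and 153 at 30 Gy, and 91.7, 16.2 and 13.2 at 40 Gy. Again 40Gy-2 and 40Gy-3 were below every other library, and 40Gy-1 lay between control and the lower doses. The fall to 40.4 ± 44.5 FPKM at 40 Gy, against 146 ± 9.31 at 20 Gy and 145 ± 12.1 at 30 Gy, passed (log2 -2.36, SE 0.518, adjusted p = 0.012, range 4.43e-05 to 0.151). It was lost without 40Gy-2 (0.0719) and 40Gy-3 (0.0576), and with both 20Gy-3 and 30Gy-3 dropped. Against control the log2 changes of 1.57 at 20 Gy and 1.53 at 30 Gy (SE 0.668 for both, adjusted p = 0.205 and 0.288) did not pass, and without 40Gy-1 both did.

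Of 20 other measured genes of sterol synthesis 15 fell and 0 rose at 40 Gy against the lower doses, where 9.71% and 11.8% of all genes did, with a median log2 change of -1.91 beside 0.07 for all genes. IDI1, the isomerase of isoprenoid synthesis, had 213, 23.4 and 32.8 FPKM at 40 Gy, against 1408, 1540.5 and 1674 at 20 Gy and 1891, 1974 and 1738 at 30 Gy (log2 -4.92, SE 0.552, adjusted p = 4.85e-04). EBP and LSS, whose enzymes act just after and just before the methyl removals on the sterol ring, fell by 3.30 (SE 0.37, adjusted p = 4.85e-04) and 1.92 (SE 0.244, adjusted p = 8.43e-04), and mevalonate kinase, MVK, fell by 3.57 (SE 0.439, adjusted p = 7.02e-04). All 4 kept their calls under every alternative, and in each 40Gy-1 was the highest library of its group. Against control 1 of 20 rose at 20 Gy, beside 2.03% of all genes, and 1 of 20 at 30 Gy, beside 1.32%, IDI1 in both, and the median log2 change was 1.19 and 1.15. At 40 Gy against control 2 of 20 fell (EBP and MVK), beside 4.41% of all genes, and the median was -0.80. Without 40Gy-1 these 3 counts were 13, 8 and 12, and in the reduced set 0 each. At 40 Gy against control the count was also 0 without 40Gy-2, 40Gy-3 or either control, and without control-1 it was 3 at each lower dose. Without each library other than control-1 and 40Gy-1 the count at either lower dose was 0 or 1. Both calls of IDI1 were lost without control-2 (0.176 and 0.195) or control-1 (0.117 and 0.1), and without 30Gy-2 (0.0526 and 0.0862) or 30Gy-1 (0.053 and 0.0895). The one at 20 Gy was lost without any 20 Gy library (0.054 to 0.0924), and the one at 30 Gy without 30Gy-3 (0.0659). Without 40Gy-1, 808 of all genes rose at 20 Gy and 553 at 30 Gy, and 1310 fell at 40 Gy against control. The count of 15 was 7 without 40Gy-2, 8 without 40Gy-3 and 4 in the reduced set.

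**Figure D5:**
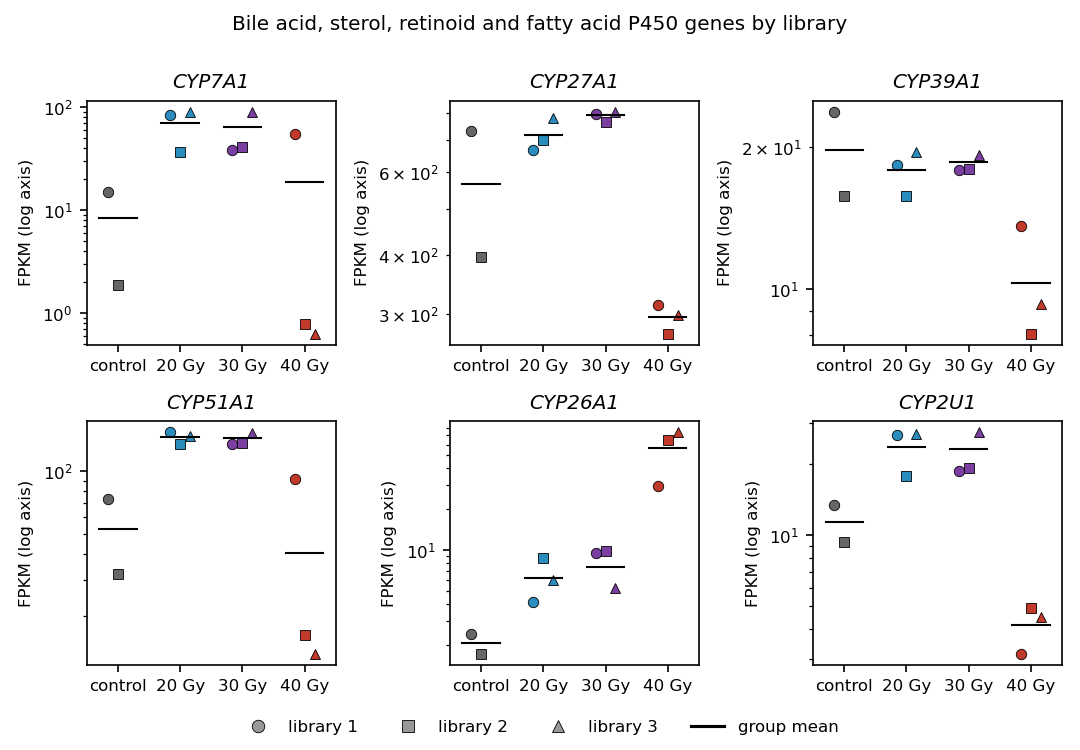
FPKM of 6 P450 genes of bile acid, sterol, retinoid and fatty acid metabolism in each library (y axis, log scale; x axis, group), with the mean of each group as a line. Shapes give the library number. CYP26A1 is highest at 40 Gy, CYP27A1 and CYP2U1 are lowest there in all 3 libraries, and CYP7A1 and CYP51A1 are lowest in 40Gy-2 and 40Gy-3.

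Receptors and factors that control P450 genes changed in 6 of 25 at 40 Gy against the lower doses (1 rose, 5 fell), where 21.5% of all genes did. NR0B2, the small heterodimer partner that represses CYP7A1, was the 1 that rose, with 52.2, 117 and 129 FPKM at 40 Gy, against 15.8, 22.4 and 16.1 at 20 Gy and 28.9, 22.4 and 15.52 at 30 Gy (log2 2.18, SE 0.313, adjusted p = 0.00175). Controls had 74.0 and 117 FPKM, and both lower doses were below them (20 Gy log2 -2.32, SE 0.405, adjusted p = 0.0119; 30 Gy log2 -2.06, SE 0.405, adjusted p = 0.0254). In the reduced set its rise at 40 Gy had an adjusted p of 0.0587. The fall at 20 Gy was lost without control-2 (0.116) or 20Gy-1 (0.0555), and that at 30 Gy without control-2 (0.22), control-1 (0.0611), 30Gy-3 (0.0768) or 30Gy-2 (0.0825). The 6 changed regulators became 3 without any 1 of 20Gy-1, 20Gy-3, 40Gy-2 and 40Gy-3, and 0 in the reduced set. NR1I2, the pregnane X receptor, which senses drugs and bile acids, had 38.0, 16.4 and 19.5 FPKM at 40 Gy, against 46.2 to 50.6 at 20 and 30 Gy (log2 -1.03, SE 0.235, adjusted p = 0.0136). Its call was lost without 40Gy-2 (0.0775) and 40Gy-3 (0.0646) and with rescaled sums (0.0664). RORA, a nuclear receptor of lipid and clock genes, rose at 20 Gy against control by 1.90 (SE 0.282, adjusted p = 0.00499), and at 30 Gy by 1.69 (SE 0.282, adjusted p = 0.0116). Both calls were lost without control-2 (0.0634 and 0.121) and in the reduced set (0.0862 and 0.488).

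Of 8 redox partners 3 fell and 0 rose at 40 Gy against the lower doses, where 9.71% and 11.8% of all genes did. CYB5R3, the reductase of cytochrome b5, had 70.1, 62.3 and 53.2 FPKM at 40 Gy, against 182 to 252 at 20 Gy and 151 to 209.8 at 30 Gy (log2 -1.62, SE 0.183, adjusted p = 4.96e-04). FDXR, which passes electrons to mitochondrial P450 enzymes such as CYP27A1, fell by 0.93 (SE 0.242, adjusted p = 0.0238), and the outer mitochondrial cytochrome b5, CYB5B, by 0.82 (SE 0.217, adjusted p = 0.0248). Both lost their calls without 40Gy-2 (0.121 and 0.108) or 40Gy-3 (0.0814 and 0.0704), and CYB5B also without 30Gy-2 (0.0538) or 30Gy-1 (0.0532). POR had 159, 376 and 293 FPKM at 40 Gy, against 165 to 236 at 20 Gy and 171 to 175 at 30 Gy, and was not called. Of 12 genes of haem synthesis and breakdown, 1 changed at 40 Gy against the lower doses, where 21.5% of all genes did. It was the biliverdin reductase BLVRB, which fell by 1.01 (SE 0.249, adjusted p = 0.0191) and lost its call without 40Gy-2 (0.0723) and in the reduced set (0.183). ALAD, the second enzyme of haem synthesis, fell at 40 Gy against control by 0.91 (SE 0.187, adjusted p = 0.0182), lost without 40Gy-2 (0.0685), control-2 (0.0776) or control-1 (0.118).

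Of 8 other oxidases and hydrolases of the same metabolic phase, 4 fell and 0 rose at 40 Gy against the lower doses, beside the 9.71% and 11.8% of all genes. These were the epoxide hydrolases EPHX1 (log2 -1.28, SE 0.267, adjusted p = 0.00957) and EPHX2 (-0.997, SE 0.179, adjusted p = 0.00491), the monoamine oxidase MAOB (-1.13, SE 0.21, adjusted p = 0.00577) and the flavin monooxygenase FMO4 (-0.97, SE 0.185, adjusted p = 0.00648). EPHX1 had 339, 164 and 147 FPKM at 40 Gy, against 451 to 561 at 20 Gy and 446 to 489 at 30 Gy, and its call was lost without 40Gy-2 (0.0595). All 4 calls were lost in the reduced set, with adjusted p of 0.131, 0.0815, 0.126 and 0.125.

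CYP2E1 and CYP1A2 mark hepatocytes around the central vein, so other markers of that zone were read beside them. Of 7 measured without P450 genes, 0 changed in any comparison. At 40 Gy against the lower doses 2 had an unadjusted p under 0.05, as had 4290 of all 11644 genes. At 20 Gy against control 3 did, as did 2562 of all genes. RHBG, an ammonia transporter of these cells, had 1.54, 1.504 and 1.71 FPKM in 20Gy-1, 20Gy-3 and 30Gy-3, the 3 libraries in which CYP2E1 was low, and 3.41 to 12.3 in the other 8. OAT, an enzyme of the same zone, was at its highest in those 3 libraries, with 159.7, 162 and 169.6 FPKM. RHBG and OAT were picked after their values were seen, and the other markers of the zone are given only within a sum. The 7 summed to 179, 176 and 185 FPKM in those 3 libraries, most of it OAT, and to 43.4 to 166 in the other 8. Periportal markers changed in 2 of 10 at 40 Gy against the lower doses (1 rose, 1 fell, median log2 change 0.72), where 21.5% of all genes did. The 2 became 6 without 40Gy-1 and 1 without 40Gy-2.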

How the data were processed

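The authors deposited 1 table of FPKM per gene and library, per the file headers, with 12505 Ensembl pig gene IDs and 11 value columns, each matched to a sample by its name. The submitters' processing notes list HISAT2, Cufflinks and HTSeq, and 2 builds, mm10 (mouse) and Sscrofa11.1 (pig), with no roles. Annotation, filters and strand setting are not stated in what was read, so overlapping genes may share reads. Low values held no step common to all genes (at most 4.76% of genes under 0.3 FPKM shared a ratio between libraries). Depth is therefore unknown, and no counting interval or detection limit is given. The number of genes at 1 FPKM or more was 10236 to 10866 per library, and column sums ran from 520840.0 to 949840.0.

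Of the IDs, 10561 had a symbol in a table of gene names and 1944 had none. Coordinates come from the RefSeq table of Sscrofa11.1, matched for 11 of 17 members, and give the whole gene. Promoter and protein sequences were not used here.

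Values were analysed as log2(FPKM + 1) in limma 3.58.1 (R 4.3.3), with 1 mean per group over all 11 libraries, 11644 genes, a variance trend along the mean and 7 residual degrees of freedom. P-values are two-sided and Benjamini-Hochberg adjusted across the whole table, with calls at an adjusted p under 0.05. They reflect variation from library to library, which could be technical. The 5 comparisons share libraries. The fit was tested on simulated data in which libraries varied independently, so that test does not cover the near-identical libraries here. Every member is named, and at most 4 called genes of each pathway list by smallest adjusted p. RARB, POR, RARRES1, RDH10, AKR1D1, RHBG, OAT, SDCBP, JCHAIN and CD79A were added after their values were seen. Not every called gene of the lists is reported here by name. Members and lists were chosen with earlier results of these data known. Alternatives were a pseudocount of 0.1, no filter, quantile normalization, sums rescaled, no variance trend, a replicate block, near-identical libraries averaged or dropped, and each library left out.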

Additional observations from a re-analysis of the deposited data

How the results depend on the processing

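A pseudocount of 0.1, no filter, quantile normalization and no variance trend left every count of called P450 genes as reported. Rescaling to a common sum gave 2 at 20 Gy, 1 at 30 Gy and 5 at 40 Gy against the lower doses, where the reported counts were 0, 0 and 8. After rescaling, the median log2 change of all genes was 0.133 over the mean of the doses, 0.167 at 20 Gy and 0.136 at 40 Gy against control. In the reported fit these medians were 0.0111, -0.0295 and 0.0567. Averaging the near-identical 30 Gy pair gave 6 at 40 Gy against the lower doses and 2 against control. Dropping 20Gy-3 and 30Gy-3 gave 4 at 40 Gy against the lower doses, CYP2A19 among them. The reduced set gave 0 over the mean of the doses, 1 at 40 Gy against control and 2 against the lower doses. Leaving out 1 library gave 0 to 2 P450 genes over the mean of the doses, 0 to 4 at 20 Gy, 0 to 3 at 30 Gy, 2 to 9 at 40 Gy and 3 to 11 at 40 Gy against the lower doses. A control left alone was assumed to vary like the other groups, and CYP2S1 had no value without 20Gy-2 or 40Gy-1. Over all genes, the 548 calls for the mean of the doses became 199 rescaled, 337 when the near-identical pair was averaged, 290 when 20Gy-3 and 30Gy-3 were dropped, 42 in the reduced set and 80 to 1416 with 1 library left out. The 492 at 20 Gy became, in the same order, 228, 295, 206, 59 and 118 to 1644. The 353 at 30 Gy became 154, 130, 126, 8 and 75 to 1110. The 861 at 40 Gy became 393, 548, 551, 123 and 224 to 2655. The 2508 at 40 Gy against the lower doses became 1539 rescaled, 1177 without 20Gy-3 and 30Gy-3, 202 in the reduced set and 846 to 4611 with 1 library left out. With the near-identical pair averaged, 942 of all genes were higher and 841 lower at 40 Gy against the lower doses. The causes were not tested. Without control-2 the log2 change of CYP2R1 at 30 Gy turned to -0.038 (0.56 without control-1) and that of CYP4V2 over the mean of the doses to -0.0056 (0.68 without control-1), neither called. For single genes, 347 results under an alternative lost their call, 4 gained one and 1165 kept direction and call. Correlations of deviations from the group means ran from -0.616 to 0.645 over 15 same-numbered pairs of libraries. They ran from -0.815 to 0.737 over the 30 other pairs between groups. With 2 or 3 libraries in a group the deviations depend on one another, so whether the numbers pair libraries cannot be told. With the replicate block, 1, 0, 0, 4 and 8 P450 genes and 440, 399, 244, 805 and 2554 of all genes were called, in the order of comparisons above.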
